A study of Mus musculus with 9 samples.

Results

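HOXA13 and HOXD13 CUT&RUN intervals were examined around 8 genes of the limb muscle lineage: Pax3, Lbx1, Met, Pax7, Myf5, Myf6, Myod1 and Myog. An interval was assigned to a gene when a summit (the position of highest signal) lay in the gene body or within 100 kb of either end, on mm10 with the GENCODE annotation. The 8 genes stand among 21728 protein-coding genes of the autosomes and X chromosome, and their windows covered 1.723 Mb. Intervals of the 9 lists that overlapped were merged, which gave 212 sites around these genes out of 193781 in the genome. The windows of Myf5 and Myf6, neighbouring genes on chromosome 10, overlap, and a site in both was counted once in totals.

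Limb muscle does not arise from the limb mesenchyme itself. Precursor cells that express the paired-box factor Pax3 leave the somites, migrate into the limb bud with the help of the homeobox factor Lbx1 and of Met, the receptor for hepatocyte growth factor, and there activate the myogenic regulatory factors Myf5, Myod1, Myf6 (also called Mrf4) and Myog. Pax7 marks muscle progenitors and, later, satellite cells. HOXA13 and HOXD13 are homeodomain proteins of the most distal limb, a territory that forms digits and holds few muscle precursors.

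CUT&RUN cuts and releases DNA around an antibody-bound protein with a tethered nuclease. The material was dissected distal forelimb of B6CBAF1 mouse embryos, each library made from a pool of cells of several embryos. Wild-type (wt) embryos at E12.5 gave 3 HOXA13 and 3 HOXD13 libraries, of which HOXD13 replicate 3 is labelled as a reanalysis of a library deposited earlier. The other 3 libraries came from embryos homozygous for the II1 TDOM 542 allele (542), 1 breeding line in which the digit enhancer II1, with an HBB promoter and a lacZ reporter, was inserted in the T-DOM domain next to the HoxD cluster. HOXA13 was profiled in 2 of them at E12.5. HOXD13 was profiled in the other, whose title says E11.5, although the growth protocol names a single collection day. The 542 reads had been mapped on the mutant genome, so genotype and mapping reference cannot be told apart, nor can genotype and stage for HOXD13. No gene examined lies on chromosome 2, which carries the insertion. Whole dissected tissue was used, so fewer cells of a type and less signal per cell cannot be told apart. No marker of muscle cells was measured in these libraries.

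The lists held 23939 to 117719 intervals and rested on 36.9 to 65.5 M read ends. Wt HOXD13 replicate 1 had the shortest list and the 542 HOXD13 library the longest. A list contains only what passed the peak caller, so a gene without an interval is one where none was called.

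To show the sequence under the site called in most lists in each window, numbered site 1, the mm10 sequence (plus strand) of its median main summit with 50 bp to each side is printed. The sites of Pax3, Met, Pax7 and Myog were called in 9 lists, that of Lbx1 in 8, that of Myf5 and Myf6 in 7 and that of Myod1 in 3. These windows are chr1:78120189-78120289 in an intron of Pax3, chr19:45221150-45221250 in intergenic sequence 14612 bp downstream of the Lbx1 start, chr6:17583775-17583875 downstream of Met, chr4:139809433-139809533 in an intron of Pax7, chr10:107569208-107569308 in an intron of Ptprq for Myf5 and Myf6, chr7:46340189-46340289 upstream of Myod1 and chr1:134362981-134363081 near Tmem183a in the Myog window. Capitals mark TTTAT or its reverse complement ATAAA, the core of the longer form CAATAAA, which HOX13 proteins bind. The longer form TCGTAAA, also searched, does not contain this core, so counts of the core do not cover it.
Pax3 site 1: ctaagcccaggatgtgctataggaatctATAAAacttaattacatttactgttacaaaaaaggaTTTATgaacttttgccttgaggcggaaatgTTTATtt
Lbx1 site 1: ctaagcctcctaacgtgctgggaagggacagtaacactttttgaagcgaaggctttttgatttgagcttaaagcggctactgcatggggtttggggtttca
Met site 1: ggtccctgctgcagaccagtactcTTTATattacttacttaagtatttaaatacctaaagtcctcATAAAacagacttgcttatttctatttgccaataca
Pax7 site 1: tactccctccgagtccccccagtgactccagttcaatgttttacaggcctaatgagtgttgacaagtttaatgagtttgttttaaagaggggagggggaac
Myf5 and Myf6 site 1: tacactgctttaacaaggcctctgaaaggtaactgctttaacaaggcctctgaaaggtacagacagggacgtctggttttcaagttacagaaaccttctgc
Myod1 site 1: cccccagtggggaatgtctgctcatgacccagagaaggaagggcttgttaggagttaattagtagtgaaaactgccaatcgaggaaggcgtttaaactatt
Myog site 1: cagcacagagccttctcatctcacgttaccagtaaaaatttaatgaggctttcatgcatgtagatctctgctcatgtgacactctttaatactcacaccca
The core occurred 3 times in the Pax3 sequence, 2 times in the Met sequence and in none of the other 5. The median Lbx1 summit fell between groups of list summits, at 45220783 to 45220801 and at 45221266 to 45221352. The printed Lbx1 window therefore held no main summit of any list, and its letters do not describe one. None of the 7 sequences held the longer forms CAATAAA or TCGTAAA on either strand. The Myf5 and Myf6 sequence contains a direct repeat in which 28 bp recur immediately, at an offset of 28 bp. In windows of the same length, the core occurred at 46.0% of all merged sites of the genome and the longer forms at 9.56%, against 36.8% and 5.66% of the 212 sites around the muscle genes. Among sites called in all 9 lists, which include 4 of the 7 printed here, the core occurred at 4 of 7 around the muscle genes (57.1%) and at 51.9% of 12409 in the genome, and the longer forms at 0 of 7 and 12.8%.

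Intervals were called in every list around 6 of the 8 genes. All 9 lists had an interval in 77.5% of protein-coding gene windows, so 6 of 8 (75.0%) was close to the background. The exceptions were Myod1, which had intervals in 5 lists, and Lbx1, which had them in 8. Over the 8 windows together, wt HOXA13 replicates 1, 2 and 3 had 80, 49 and 42 intervals, and wt HOXD13 replicates 1, 2 and 3 had 17, 88 and 24. The 542 HOXA13 lists had 80 and 48 and the 542 HOXD13 list 96. Per megabase this was between 0.976 and 1.75 times the density of the same list over the genome. Wt HOXD13 replicate 2 gave the highest ratio and wt HOXD13 replicate 3 the lowest, so the 2 ends of the range came from 1 antibody and genotype.

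**Figure D1:**
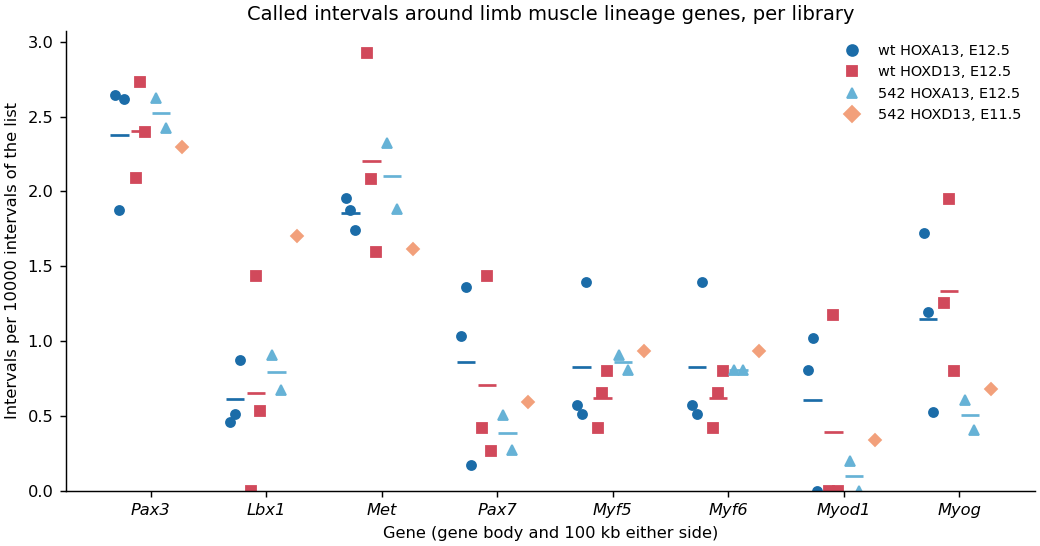
Intervals around each gene per 10000 intervals of the list (vertical axis), 1 point per library, with a line at the mean of each group of 2 or 3 libraries. Pax3 and Met have the highest values in most libraries, and the values of the 2 antibodies in wt overlap at every gene.

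Pax3, the factor that marks precursors before and during migration, had more intervals than any other of the 8 genes in 7 of the 9 lists. Counts were 23, 11 and 15 in the wt HOXA13 lists, 5, 21 and 9 in the wt HOXD13 lists, 26 and 18 in the 542 HOXA13 lists and 27 in the 542 HOXD13 list. Scaled to 10000 intervals of a list, these became 2.38 ± 0.436 (SD, n = 3) for wt HOXA13 and 2.41 ± 0.322 (n = 3) for wt HOXD13. The means of the 2 antibodies differed by less than the spread within either. Among all protein-coding genes, ranked by the median density over the 6 wt lists, Pax3 stood at percentile 84.7, and between 66.2 and 92.2 in single wt lists.

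Met, which encodes the receptor tyrosine kinase that guides delamination and migration, followed at percentile 67.5. The wt HOXA13 lists had 17, 11 and 10 intervals, the wt HOXD13 lists 7, 16 and 6, the 542 HOXA13 lists 23 and 14 and the 542 HOXD13 list 19. Every list had at least 6 intervals here, and wt HOXD13 replicate 1, the shortest list, had more at Met than at any other of the 8 genes. The Met window was the longest, at 310.181 kb, and percentiles are per length.

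Lbx1, which the migrating precursors need to reach the limb, varied widely between lists of both genotypes. Its wt counts were 4, 3 and 5 for HOXA13 and 0, 11 and 2 for HOXD13. In the 542 lists they were 9 and 5 for HOXA13 and 20 for HOXD13. The 542 HOXD13 count placed Lbx1 at percentile 95 of that list, against 10.1 to 64.3 in the 6 wt lists, but that group has 1 library and another stage label. Its percentile by the median of the wt lists was 31.1.

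Pax7, a marker of muscle progenitors, had 9, 8 and 1 intervals in the wt HOXA13 lists and 1, 11 and 1 in the wt HOXD13 lists. The 542 lists had 5, 2 and 7. Each antibody therefore had at least 1 wt list with 8 or more intervals and at least 1 with a single interval, and Pax7 stood at percentile 27.9.

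Of the myogenic regulatory factors, Myog, which drives differentiation, had the highest percentile by the median of the wt lists, 46.8, with 15, 7 and 3 in the wt HOXA13 lists, 3, 15 and 3 in the wt HOXD13 lists and 6, 3 and 8 in the 542 lists. Myf5, the earliest of these factors in the embryo, had 5, 3 and 8 intervals with HOXA13 and 1, 5 and 3 with HOXD13 in wt, and 9, 6 and 11 in the 542 lists, more than Myog in wt HOXA13 replicate 3 and in the 3 lists of the 542 line. The Myf6 window, which shares most of its sites with that of Myf5, had the same counts except for 8 in 542 HOXA13 replicate 1. These 2 genes stood at percentiles 35.7 and 36.1. Myod1, a determination factor, had 7, 6 and 0 intervals with HOXA13 and 0, 9 and 0 with HOXD13 in wt, and 2, 0 and 4 in the 542 lists. It had the lowest percentile of the 8, at 27.2. In the order Pax3, Met, Myog, Myf6, Myf5, Lbx1, Pax7 and Myod1, the ranges of percentile over the wt lists overlapped for every pair of neighbours.

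For Myod1, Pax7 and Myog, counts among the wt lists were highest in HOXA13 replicates 1 and 2 and HOXD13 replicate 2, and low in wt HOXA13 replicate 3 and wt HOXD13 replicate 3. The latter pair of lists is shorter than wt HOXA13 replicate 1 and wt HOXD13 replicate 2, but wt HOXA13 replicates 2 and 3 have lists of nearly equal length, 58642 and 57367 intervals, and differ at Myod1 by 6 against 0 and at Pax7 by 8 against 1. At Myf5 the order of these 2 libraries was the opposite, 3 against 8.

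Sites called in every library were a smaller share around the muscle genes as a set than in the genome. Of 212 merged sites, 7 were called in all 9 lists (3.30%), against 6.40% of merged sites in the genome. The Met window held 4 of them, 10.5% of its sites and thus above the genome's share. The Pax3, Pax7 and Myog windows held 1 each (1.92%, 3.70% and 3.70% of their sites). At least 5 lists called 33 sites (15.6%, against 24.6% in the genome), and a single list called 123 (58.0%, against 50.0%). Of the sites in a single list, 36 were in the 542 HOXD13 list and 30 in wt HOXD13 replicate 2. The Lbx1 window had 1 site in 8 lists and 1 in 7, the Myf5 and Myf6 windows shared 4 sites in 7 lists, and no site around Myod1 was called in more than 3 lists. The count of 7 depended on the limits, and 1 site remained common to all lists at a fold enrichment of at least 5. It was 3 when sites were formed from main summits within 100 bp instead of overlapping intervals. When the shortest list, wt HOXD13 replicate 1, was left out, 12 sites were common to the other 8 lists.

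**Figure D2:**
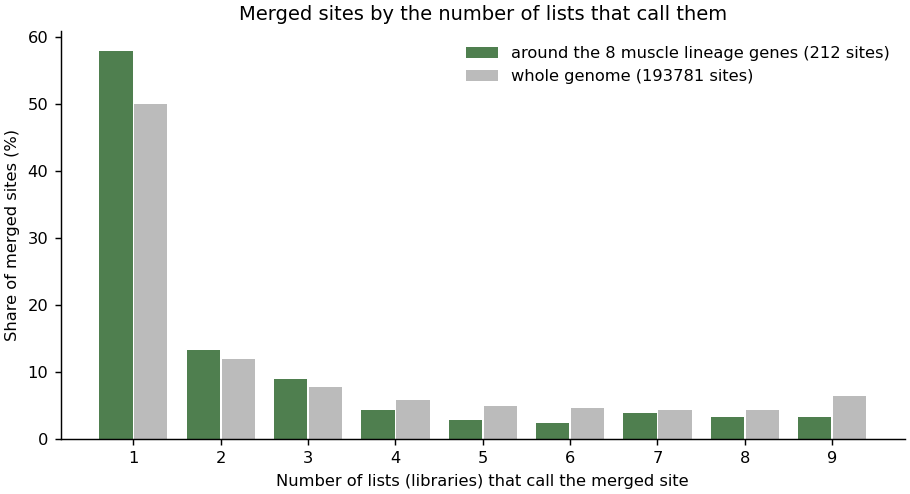
Share of merged sites (%) by the number of lists that call them (1 to 9), for the 212 sites around the muscle lineage genes and for all 193781 merged sites. A larger share of the muscle gene sites than of all sites is in 1 list (58.0% against 50.0%), and a smaller share is in 9 lists (3.30% against 6.40%).

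By median summit, the shared sites lay away from the promoters of the muscle genes. The 7 sites in all 9 lists had their summits 3711 to 76599 bp from the nearest transcript start of the gene in question. For Met these were intergenic sites 75517 bp upstream of the gene start and 36852 and 42836 bp from the nearest Met transcript start beyond the gene's 3′ end, and 1 intronic site 3949 bp downstream of the gene start. For Pax3 and Pax7 they were intronic, 76895 and 24045 bp downstream of the gene start. The site in the Myog window, chr1:134361567-134363547, lay 73042 bp downstream of the Myog start, and its median summit was 1052 bp from the start of Tmem183a. In wt HOXD13 replicate 3 its main summit, at 134362226, was closer to that start. None of the 7 median summits was within 1 kb of a protein-coding transcript start, whereas 29.2% of those of the genome sites in all 9 lists were. For the Myog site this rests on the median, which narrowly missed the limit. Over all 212 sites the share within 1 kb was 9.43%, against 9.16% in the genome.

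At the starts of the muscle genes, 12 sites lay within 1 kb of a transcript start of a member, at distances of 53 to 926 bp. They were called in 1 to 3 lists each, 8 of them in a single list, with fold enrichments of 2.06 to 4.14. Met had 4 of them, 3 at internal transcript starts, Lbx1 had 3, Myod1 had 2, in its coding exon, Myf5, Myf6 and Pax7 had 1 each, and Pax3 and Myog had none. A site within 1 kb of an own transcript start was thus present at 6 of 8 genes (75.0%), against 62.4% of all protein-coding genes. A limit of 4 or more lists, chosen after the list counts of the 12 sites were seen, gives 0 of 8 by construction. The share of all genes with such a site, 46.4%, is therefore no comparison. Site 3 of the Myf5 and Myf6 windows, chr10:107492566-107493601, was called in 7 lists and lay over the 3′ part of Myf6, with its median summit in an annotated UTR and 1618 bp from the Myf6 start. Its fold enrichments were 3.47 and 3.36 in wt HOXA13 replicates 1 and 3, 2.30 and 4.24 in wt HOXD13 replicates 2 and 3, 4.98 and 6.54 in the 542 HOXA13 libraries and 2.99 in the 542 HOXD13 library.

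**Figure D3:**
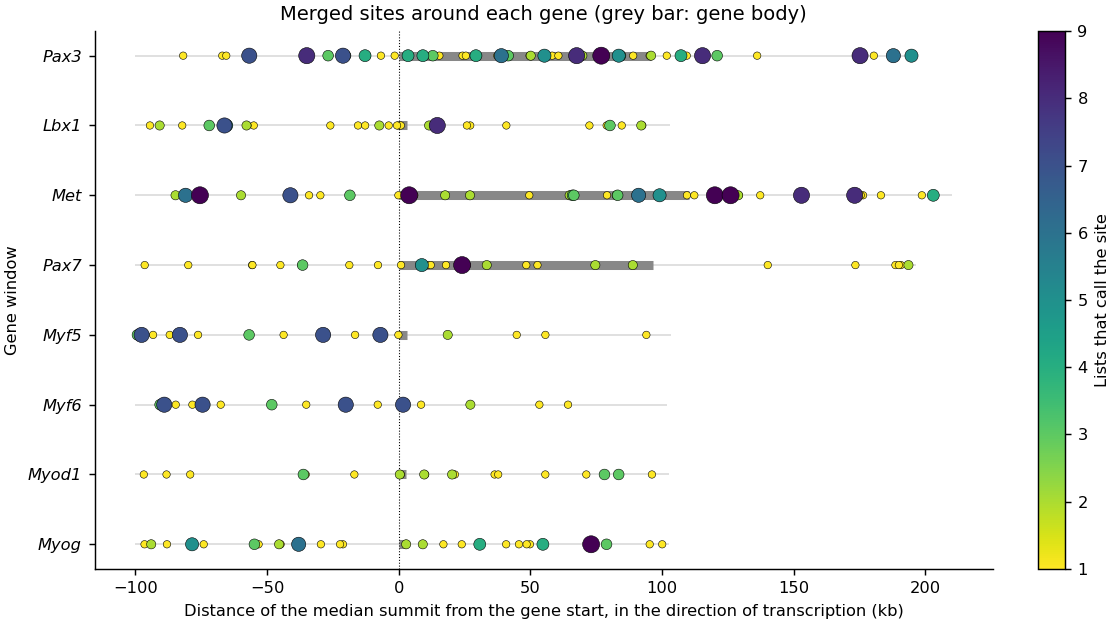
Merged sites around each gene by distance of the median summit from the gene start in the direction of transcription (kb). Each row is a gene window, the grey bar is the gene body, and size and colour of a point give the number of lists that call the site. The sites in 9 lists (darkest points) are in the Pax3, Met, Pax7 and Myog rows and none is at a gene start.

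The neighbours of a member can own a site in its window. A member had the nearest protein-coding transcript start for 124 of the 212 sites, and 57 sites lay in a member's gene body. Around Myog this held for 5 of 27 sites only, and around Pax3 for 48 of 52, of which 26 were in the Pax3 gene body. The 2 Myod1 sites next in rank, chr7:46459700-46460178 and chr7:46454150-46454677, lay in introns of Sergef and closer to the start of Kcnc1 than to Myod1.

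The second question was whether the antibodies marked these loci alike. In wt embryos 148 sites were called, 55 with HOXA13 alone, 41 with HOXD13 alone and 52 (35.1%) with both, against 43.7% over the genome. The share was 24.1% when wt HOXD13 replicate 2 was left out, a library that called 83 of the 212 sites, against 17 and 23 for HOXD13 replicates 1 and 3. By gene, both antibodies called 12 of 24 wt sites around Met, 14 of 36 around Pax3, 10 of 23 around Myog, 5 of 10 around Myf5 and also around Myf6, 5 of 17 around Myod1, 4 of 22 around Pax7 and 2 of 16 around Lbx1.

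Scaled interval counts did not separate the antibodies at any of the 8 genes. The 3 wt HOXA13 values lay above the 3 wt HOXD13 values at 0 of 8 genes, against 2.39% of all protein-coding genes, and below them at 0 of 8, against 7.91%. The log2 ratio of the means, HOXA13 over HOXD13, was 0.64 for Myod1, 0.41 for Myf5 and Myf6, 0.28 for Pax7, -0.02 for Pax3, -0.09 for Lbx1, -0.22 for Myog and -0.24 for Met. Exact two-sided permutation tests gave p between 0.6 and 1 for the 8 genes (adjusted p = 1 for each by Benjamini-Hochberg over all genes). With 3 lists against 3 the smallest p is 0.1, and of 21728 genes 0 reached an unadjusted p under 0.05, so this design could not have shown a difference by that test.

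The height of the signal is given for the most shared site of each window. Fold enrichment here is the pileup at the summit over local background, as deposited. At Pax3 site 1 it was 9.73, 4.97 and 4.56 in wt HOXA13, 3.51, 5.28 and 4.70 in wt HOXD13, 10.9 and 10.3 in 542 HOXA13 and 12.7 in 542 HOXD13. The 3 libraries of the 542 line were above all wt libraries at this site, and the wt antibodies overlapped. Behind these values were pileups of 17 read ends (95% exact Poisson interval 9.90 to 27.2) in wt HOXD13 replicate 1 to 250 (220 to 283) in 542 HOXD13.

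At Met site 1 fold enrichment was 9.58, 9.09 and 7.70 in wt HOXA13, 5.08, 9.16 and 6.35 in wt HOXD13, 12.2 and 12.46 in 542 HOXA13 and 11.7 in 542 HOXD13. Within their lists these intervals stood at percentile 70.4 to 97.7 of −log10 p. The site thus stood above the middle of every list.

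At Pax7 site 1 the values were 9.19, 6.01 and 3.12 in wt HOXA13, 4.29, 6.25 and 3.64 in wt HOXD13, 14.4 and 12.0 in 542 HOXA13 and 9.52 in 542 HOXD13. Wt HOXA13 replicate 3, which had 1 interval in the whole Pax7 window, thus called this site only, at 17 read ends.

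At Lbx1 site 1 they were 3.32, 3.58 and 3.07 in wt HOXA13, 3.16 and 2.87 in wt HOXD13 replicates 2 and 3, 5.56 and 4.92 in 542 HOXA13 and 6.95 in 542 HOXD13. Again the 542 values were above the wt values, but they mostly belonged to different summits within the merged site. Main summits were at 45220783 to 45220801 in the 542 libraries and wt HOXD13 replicate 2. In the wt HOXA13 libraries and wt HOXD13 replicate 3 they were at 45221266 to 45221352. Wt HOXD13 replicate 1 did not call the site.

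At the site shared by Myf5 and Myf6 they were 7.69, 6.13 and 3.72 in wt HOXA13, 5.14 in wt HOXD13 replicate 2, 8.14 and 8.66 in 542 HOXA13 and 10.6 in 542 HOXD13. All 3 wt HOXA13 libraries but only 1 of 3 wt HOXD13 libraries called it. The site lies in an intron of Ptprq, 83124 bp upstream of the Myf5 start and 74521 bp upstream of the Myf6 start.

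At Myod1 site 1, 36235 bp upstream of the gene start, only wt HOXA13 replicate 1 (3.18), 542 HOXA13 replicate 1 (6.001) and 542 HOXD13 (7.37) had an interval. The other 6 libraries, all 3 of wt HOXD13 among them, had none.

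At Myog site 1 the values were 13.1, 12.4 and 5.98 in wt HOXA13, 7.28, 6.83 and 2.99 in wt HOXD13, 13.5 and 13.1 in 542 HOXA13 and 8.65 in 542 HOXD13. The 2.99 of wt HOXD13 replicate 3 belongs to a separate summit, at 134362226, against 134363007 to 134363064 in the other lists. Its interval was merged into the site through overlap with the wider interval of 542 HOXA13 replicate 1. Pileups ranged from 20 read ends in wt HOXD13 replicate 3 to 432 in 542 HOXA13 replicate 1. Replicate 3 of each antibody had the lowest wt value, and it was the strongest of the 7 sites in 4 of the 9 libraries.

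**Figure D4:**
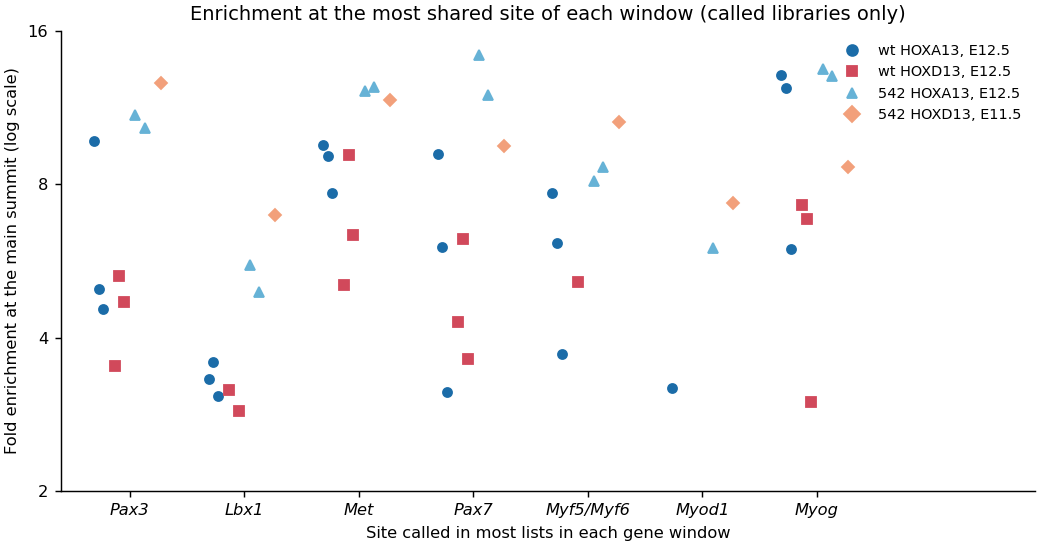
Fold enrichment at the main summit (log axis) for the site called in most lists in each gene window, 1 point per library that called it. The 542 libraries that called a site are above every wt library that called it, except at Myog. Only 3 libraries called the Myod1 site, 1 of them wt, and the Lbx1 values mostly belong to different summits. Among genome sites called in every list, 542 HOXA13 was above wt HOXA13 without overlap at 32.7% by fold enrichment. The opposite held at 0.846%. No such share is at hand for all 542 against all wt libraries.

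At the 7 sites in all 9 lists, pileups were also compared per 10 M read ends, a comparison added after the site values were seen. The 3 wt HOXA13 values were above the 3 wt HOXD13 values at 4 of 7 sites (Pax3 site 1 and Met sites 1, 3 and 4), while 18.2% of the 12409 such sites in the genome showed this, and below them at 0 of 7, against 0.540%. By fold enrichment the former count was 2 of 7, Met sites 2 and 4, against 10.1%. The largest difference of means was at Myog site 1, with 37.1 ± 21.5 for wt HOXA13 and 12.53 ± 6.24 for wt HOXD13 (SD, n = 3 each), where the values of the antibodies overlapped as groups. That wt HOXD13 mean includes replicate 3, whose main summit lay apart, so the comparisons at this site, paired ones included, mix summits. Within same-numbered pairs of wt libraries, HOXA13 was above HOXD13 in all 3 pairs at 6 of 7 sites, the 4 above with Myog site 1 and Met site 2, against 41.0% of such sites in the genome, and below it in all 3 pairs at 0 of 7, against 1.03%. That pairing was inferred from the replicate numbers and is uncertain, since some differently numbered libraries correlated more strongly. At Met site 3 the means were 18.7 ± 7.91 and 7.46 ± 0.844 (n = 3 each), without overlap.

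The third comparison was between genotypes, for HOXA13 at E12.5. Scaled interval counts did not separate the 3 wt from the 2 542 libraries at any of the 8 genes. All 542 values were above the wt values at 0 of 8 genes, against 8.41% of all protein-coding genes, and below them at 0 of 8, against 13.7%. Means were lower in 542 for Myog (0.505 ± 0.143, n = 2, against 1.15 ± 0.603, n = 3), Myod1 (0.101 ± 0.143 against 0.609 ± 0.539) and Pax7 (0.387 ± 0.167 against 0.858 ± 0.614), with the wt range covering at least 1 of the 542 values. Exact two-sided permutation p ranged from 0.2 to 1 (adjusted p of 0.939 to 1 over all genes), the smallest p possible was 0.1, and 0 of 21728 genes reached an unadjusted p under 0.05. Leaving out wt HOXA13 replicate 3 made 6 of the 8 genes separate, with Myod1, Pax7 and Myog higher in wt and Myf5, Myf6 and Lbx1 higher in 542, but 46.7% of all genes were then separated.

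Pileups at the shared sites gave a different picture from the counts. Per 10 M read ends, both 542 HOXA13 libraries were above all 3 wt HOXA13 libraries at 5 of the 7 sites in all 9 lists, namely Pax3 site 1, Pax7 site 1 and Met sites 1, 3 and 4, against 30.8% of such sites in the genome. The opposite held at 0 of 7, against 1.53%. At Pax3 site 1 the means were 22.7 ± 4.62 (n = 2) and 10.6 ± 4.43 (n = 3), a log2 ratio of 1.10, and at Met site 3 they were 41.4 ± 2.95 and 18.7 ± 7.91, a log2 ratio of 1.15. The 542 HOXA13 lists were also longer than 2 of the 3 wt lists, at 99090 and 74344 intervals, and the part of library quality or of the mapping reference in these values was not tested.

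As a set, intervals around the muscle genes were somewhat weaker than their lists. Median fold enrichment was 3.18, 3.31 and 3.24 in the wt HOXA13 lists, against 3.76, 3.65 and 3.30 over the whole lists, and 3.62, 2.84 and 3.42 in the wt HOXD13 lists, against 3.90, 3.24 and 3.44. It was above the list's median only in 542 HOXA13 replicate 2, 4.38 against 4.18, and equal to it in 542 HOXD13, at 3.37. The median interval around the muscle genes stood at percentile 33.3 to 49.0 of its list by −log10 p.

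HOX13 recognition letters were counted within 25 bp of main summits. CAATAAA or TCGTAAA on either strand occurred in 2 of 80, 1 of 49 and 0 of 42 intervals of wt HOXA13 and in 0 of 17, 3 of 88 and 0 of 24 of wt HOXD13. The mean share was 1.32% ± 1.52 (SD, n = 6 lists), against 4.90% ± 1.02 over the whole lists and 0.690% ± 0.948 in windows 1 kb to each side of the same summits. With so few intervals the exact 95% binomial intervals were wide, for example 0 to 19.5% in wt HOXD13 replicate 1, and these intervals cover counting error only. The 542 HOXA13 lists had 5 of 80 and 3 of 48, 6.25% in each, against 8.37% and 7.84% over the whole lists, and the 542 HOXD13 list had 2 of 96 (2.08%), against 5.71%. Within 100 bp of the summit the shares were 8.10% ± 3.42 around the muscle genes and 14.03% ± 1.99 in the lists. The core TTTAT alone was found at 27.3% ± 6.94 and 27.7% ± 3.81, and at 16.9% ± 3.14 of the windows 1 kb away. Of the 7 sites in all 9 lists, 0 held a longer form within 25 bp of the median summit, against 7.10% of such sites in the genome. Promoter sequences (250 bases before to 50 after a gene start, RefSeq, GRCm38.p6) were at hand for Met, Pax7, Myf5 and Myog, and none of the 4 held either form, which 5.15% of 32851 promoters did.

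Interval density around the muscle genes was lastly set beside other genes. The median over the 8 genes was 1.98 intervals per 100 kb (median of the 6 wt lists), against 2.62 over all protein-coding genes, and the median percentile was 35.9. The direction was not the same in every wt list. The median over the 8 genes was below that over all genes in HOXA13 replicates 1 (3.245 against 4.39) and 2 (2.83 against 2.899). It was also below in HOXD13 replicate 1 (0.494 against 1.084). In HOXA13 replicate 3 (2.843 against 2.266) and HOXD13 replicate 2 (4.8 against 4.394) it was above, and in HOXD13 replicate 3 nearly equal (1.479 against 1.477). Among 17 other genes of limb muscle, which include upstream factors such as Six4 and differentiation products such as Des and Acta1, the median was 2.71 (percentile 52.5), from 1.60 for Cdh15, which encodes M-cadherin, to 7.01 for Six4, a homeobox factor that acts upstream of Pax3. Among 12 factors of unrelated lineages it was 2.68 (percentile 51.4), and the highest value was 3.93, for Foxn1. Among 19 genes of distal limb mesenchyme it was 5.66 (percentile 95.3), from 2.399 for Epha7, an ephrin receptor, to 11.3 for Hoxa13 itself. Neighbouring genes with overlapping windows were counted separately in that list, such as Hoxd13, Hoxd12 and Evx2 on chromosome 2 (10.58, 10.61 and 10.17). The 19 genes are therefore not 19 separate loci. Pax3, at 4.39, lay within the range of the mesenchyme genes, Met at 3.39 and Myog at 2.47 were above Epha7 alone, and the other 5 muscle genes were below all of them. Counted in gene bodies alone, the median percentile of the 8 genes was 69.2, so their place among all genes depended on the flanks.

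**Figure D5:**
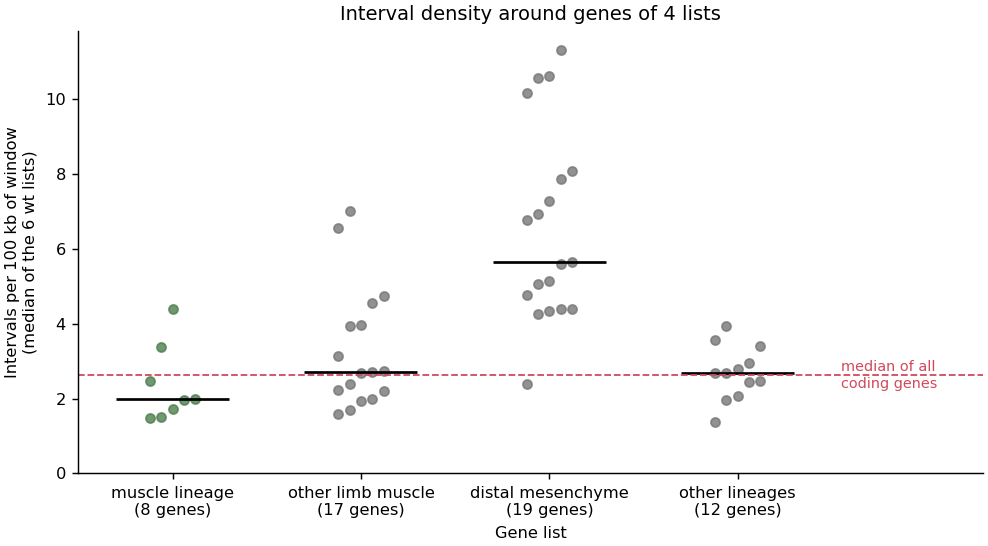
Intervals per 100 kb of gene window, as the median of the 6 wt lists (vertical axis), for each gene of 4 lists, with a black line at the median of a list and a dashed line at the median of all protein-coding genes. Of the 8 muscle lineage genes, 6 lie below the dashed line, and all distal mesenchyme genes but Epha7 lie above it.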

How the data were processed

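CUT&RUN with HOXA13 and HOXD13 antibodies was analysed from the peak lists of 9 libraries, 1 list per library, grouped by the genotype, stage and antibody in their labels. According to the study's methods and the processing notes, the authors trimmed reads with Cutadapt, mapped them with Bowtie on mm10 or the mutant genome and called peaks per library with MACS2, each read end extended to 200 bp, at a q-value of 0.05 and with no control library. The notes name a step for duplicates, but the commands listed kept them at peak calling, which raises pileups. In the deposited columns, fold enrichment is the ratio of the summit's pileup over its local background. The −log10 p-value and −log10 q-value that the authors deposited give the Poisson significance of the pileup, and the deposited score is the −log10 q-value on an integer scale.

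Rows that shared both ends formed 1 interval, represented by its most significant summit (the main summit). Intervals overlapping by at least 1 bp were merged into sites, chromosome 2 past the insertion left out. Pileups and read ends per library were solved from fold enrichment and −log10 p. At least 99.9995% of the solved pileups were within 0.05 of a whole number. Counts per gene window were scaled to 10000 intervals of the list and compared by exact permutation of libraries. A gene was also counted where groups did not overlap. The counting steps were tested on simulated data, and 8-fold changes planted at 200 of 21728 genes, wt HOXA13 against wt HOXD13, were found at 100% of them, while 9.067% of the other 21528 genes were called in either direction. Planted genes all had a wt mean above 1 interval per 10000, and simulated counts varied by Poisson noise only. Myod1, Myf5, Myf6, Pax7 and Lbx1 had means under 1 with both antibodies in wt, so this recovery does not cover them. The study describes pools of embryos from separate litters, which the labels do not tie to replicates, so tests measure the spread between these libraries, which may be technical.

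All 8 genes were named, with up to 3 sites per window by number of lists (ties by median percentile of −log10 p within a list) and every site within 1 kb of a member's transcript start. Other genes were named for the highest or lowest density of their list. The lowest gene of 1 list is not reported here. A few further genes were named as neighbours or as examples of a list after values were seen. Members and lists were chosen with earlier results of these data known. Same-numbered wt libraries of the 2 antibodies deviated together from their antibody means, with correlations of 0.110, 0.143 and 0.348 across merged top intervals, each over 0.1, so the replicate numbers in the titles were taken to pair them. However, wt HOXA13 replicate 1 with wt HOXD13 replicate 2 reached 0.219, and wt HOXA13 replicate 2 with wt HOXD13 replicate 1 reached 0.146. The pairing is therefore uncertain. Alternatives were other limits, windows, scalings, motif letters and libraries left out. Annotation was GENCODE vM21 on GRCm38, coordinates are 1-based, and sequence was the GRCm38.p6 assembly. Python 3.11.15 was used with samtools 1.23.1, scipy 1.17.1, numpy 2.4.6, matplotlib 3.10.9, pysam 0.24.0 and pandas 2.3.3.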

Additional observations from a re-analysis of the deposited data

How the results depend on the processing

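The lists hold called intervals only, 23939 to 117719 from 36.9 to 65.5 M read ends, so a site not listed was not called at that depth. The 7 member sites in all 9 lists became 1 at a fold enrichment of at least 5, 2 at a −log10 q of at least 5, 1 with the top 10000 intervals per list, 17 with 250 kb flanks, 3 in gene bodies only and 3 with main summits within 100 bp. The count was 7 to 12 with 1 library left out, 12 without wt HOXD13 replicate 1. The share of wt sites with both antibodies, 35.1%, became 55.0%, 51.0% and 70.0% under the first 3 limits and 27.6% with main summits within 100 bp, and 24.1% to 35.3% with 1 library left out, lowest without wt HOXD13 replicate 2. The number of genes separated between antibodies, 0, became 1 (Met, higher for HOXA13) with the top 10000 intervals per list, where 9.43% of all genes were separated. It was 0 to 1 with 1 library left out. The 1 was Met, higher for HOXD13, without wt HOXD13 replicate 3, where 23.4% of all genes were separated. The number separated between genotypes, 0, became 3 at a fold enrichment of at least 5 (Myf5 and Myf6 higher in 542, Myog in wt) and 1 at a −log10 q of at least 5 (Lbx1, higher in 542), against 21.1% and 19.8% of all genes. It was 0 to 6 with 1 library left out, 6 without wt HOXA13 replicate 3, where 46.7% of all genes were separated. It was 2 without 542 HOXA13 replicate 2 (Lbx1 and Met), against 40.7% of all genes. It was 1 without wt HOXA13 replicate 1 (Met) or 542 HOXA13 replicate 1 (Myog), against 34.7% and 38.4% of all genes. With the replicate number as a block it was 7, where 60.3% of all genes were called. Here the correlations of same-numbered libraries were 0.00834 and -0.0099, so these share only a number. With the replicate block the count between antibodies was still 0, and the number of 9-list sites separated between antibodies by pileup, 4, became 6. The median percentile, 35.9, became 17.6 with the top 10000 intervals, 48.4 with 250 kb flanks and 69.2 in gene bodies, and was 34.6 to 49.6 with 1 library left out, highest without wt HOXA13 replicate 2 or 3. The motif share, 1.32%, became 8.10% within 100 bp of the summit and 27.3% for the core TTTAT. That number of sites became 2 by fold enrichment. The causes were not tested. Met was thus called in opposite directions between antibodies under 2 settings, and the median percentile was above the middle of all genes in gene bodies and below it otherwise.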
